A study of Mus musculus with 12 samples.

Results

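The genes described are 10 regulators of cell cycle transcription: E2f1, E2f2, E2f3, E2f6, E2f7 and E2f8, Mybl2, Foxm1, and the pocket protein genes Rbl1 and Rbl2. They were chosen by name, through the RefSeq transcript that the scanner files give for each probe, from 17016 genes with an assigned symbol on the array. The choice was made with earlier results of these data known, so counts of members are descriptions. All 10 were measured, by 13 probes that all passed the filter on dim probes. Messenger RNA was measured on 12 one-colour arrays, 1 per culture, from a line of mouse embryonic fibroblasts without FAK, the focal adhesion kinase that Ptk2 encodes, and from a rescue line, which is clone DA2 of FAK-deficient cells given FAK back. Both lines were grown in DMEM with Glutamax and 10% FBS, and only the rescue line also received hygromycin B and non-essential amino acids, so line, clone and medium changed together. Cells were seeded in 10 cm dishes as sparse cultures (410000 cells) or dense cultures (8200000 cells) and harvested after 24 h. The 4 groups (sparse and dense rescue, sparse and dense knockout, called KO) held 3 cultures each, 1 from each of 3 experimental days. The comparisons ask how these genes differ between lines at each seeding density, how they respond to density in each line, and whether the 2 responses differ.

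E2F proteins bind DNA, most of them together with a DP partner, and control genes of S phase entry. Pocket proteins (RB, and p107 and p130, the products of Rbl1 and Rbl2) bind E2Fs and hold target genes silent until cyclin-dependent kinases phosphorylate them. In resting cells p130 joins E2F4, DP and the MuvB core in the DREAM complex, which represses cell cycle genes, and in cycling cells MuvB binds B-MYB (the product of Mybl2) and later FOXM1 to activate genes of mitosis. Cultured fibroblasts are known to leave the cycle when they become crowded.

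Promoter windows from RefSeq (GRCm38.p6, 250 bases before to 50 after a start) were at hand for 9 members, with 11 windows. They were searched on both strands for E2F letters (TTTCCCGC, TTTCGCGC, TTTGCCGC or TTTGGCGC), CHR letters (TTTGAA or TTCGAA, the cell cycle homology element of genes bound by MuvB), CCAAT and MYB letters (AACGG). The shorter string GGCGGGA, which overlaps the first E2F string on its other strand, was added after the windows had been seen. The 60 bases before the start are shown for 6 members because they differ in these letters and in how the genes moved with density. Capitals mark E2F, CHR or GGCGGGA letters, and the last base lies next to the start.
E2f3, chr13:29986064-29986123, minus strand: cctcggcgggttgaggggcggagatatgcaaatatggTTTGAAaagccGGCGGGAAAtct
Rbl1, chr2:157204535-157204594, minus strand: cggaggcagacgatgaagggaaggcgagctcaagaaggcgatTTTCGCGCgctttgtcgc
Mybl2, chr2:163054575-163054634, plus strand: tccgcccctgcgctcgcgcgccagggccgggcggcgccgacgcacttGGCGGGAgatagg
E2f8, chr7:48881597-48881656, minus strand: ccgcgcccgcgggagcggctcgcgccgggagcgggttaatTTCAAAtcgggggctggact
E2f6, chr12:16810905-16810964, plus strand: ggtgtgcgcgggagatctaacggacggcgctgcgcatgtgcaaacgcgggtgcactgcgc
Rbl2, chr8:91069997-91070056, plus strand: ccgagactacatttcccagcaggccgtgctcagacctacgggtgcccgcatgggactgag
In E2f3 a CHR string stood 23 bases before the start, upstream of a joint GGCGGGAAA run that holds both the short string (from 12 bases before) and the E2F string (from 11 bases before). Rbl1 had its E2F string 18 bases before the start, Mybl2 the short string 13 bases before, and E2f8 a CHR string on the other strand 20 bases before. The printed bases of E2f6 and Rbl2 held none of these strings. E2f6 held MYB letters 42 bases before its start, and Rbl2 held CHR letters 201 and MYB letters 153 bases before. Outside the printed stretches, E2f7 held E2F letters 198 bases before its start and the first of the 2 windows of E2f2 held them after the start. In all, 4 of 11 member windows held E2F letters (36.4%), against 744 of all 32851 windows (2.26%). CHR letters were in 4 of 11 (36.4%, all windows 19.2%), CCAAT in 5 (45.5%, all windows 37.4%), MYB letters in 3 (27.3%, all windows 17.4%) and GGCGGGA in 3 (27.3%, all windows 11.3%). A match describes letters in a window and shows no binding. The windows of E2f1, E2f8 and Mybl2 lay wholly inside the annotated genes (E2f1 window chr2:154569377-154569676, gene end 154569892). Bases before the outer start of these genes were thus not searched.

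Levels are log2 signals relative to the 75th percentile of their array, and levels of different probes are not set against each other. Between 23150 and 26183 of 41174 probes stood well above background, and the 75th percentile lay between 294 and 1594 intensity units. The number of arrays limits the precision. Every member was well above background on all 12 arrays with the probe used. Of 2 probes for Ptk2, the brighter one did not separate the lines (-0.11 ± 0.18 between KO and rescue when sparse, -0.07 ± 0.18 when dense, limma adjusted p = 0.648 and 0.763). The other gave -2.08 ± 0.31 for sparse KO minus rescue and -0.93 ± 0.31 for dense, both lower in KO cells (adjusted p = 0.000167 and 0.0210). The position of these probes within Ptk2 was not at hand, so neither checks the knockout. Of 10 fibroblast markers 8 or 9 were well above background in each group, Thy1 was below it in every group but dense KO and Lum in every group but dense rescue. Their summed linear level, relative to the 75th percentile, was 778 to 1183 in rescue and 329 to 387 in KO cultures. Of 9 tested, 8 were lower and 0 higher in dense KO than dense rescue cells, and 5 were lower and 3 higher in sparse cells. Lum passed the filter on dim probes only through dense rescue cells, where it is high, so its place among the 8 carries no weight. The summed level of 6 epithelial markers was 1.48 to 6.91 in rescue and 101 to 148 in KO cultures. Of 5 tested, 3 were higher and 1 lower in dense KO cells, and 2 higher and 0 lower in sparse KO cells (median 0.10). The lower one, Cdh1, passed the filter only through rescue cells, where it is high, so its place carries no weight. The largest differences were those of Krt18 (8.53 ± 0.17 sparse, 9.73 ± 0.17 dense) and Krt14 (3.44 ± 0.30 and 7.03 ± 0.30), so the sum does not describe the list as a whole. Of 4 mesothelial markers, Wt1 and Upk3b were well above background on every KO array and on no rescue array, Krt19 was higher in KO cells in dense culture only (2.46 ± 0.52), and Msln was lower in KO cells in both densities (-1.31 ± 0.22 and -1.66 ± 0.22). Epcam was below background in every group but sparse KO, and Cdh1 in both KO groups. Endothelial and leukocyte markers summed to at most 0.246, with Pecam1 and Ptprc below background on every array. Cd3e was well above background on all 3 arrays of every group, at a low mean level (-3.70). Kdr was so in dense rescue cells only (mean -3.92) and Tek in dense KO cells only (-4.21). The part of these line differences in the members' values was not tested. In the authors' deposited value table, the columns of day 3 followed the scanner file of the other line (r with their own file -0.679 to -0.521, with the other line's file of that day and density 0.903 to 0.932). The other 8 columns followed their own file (r = 0.883 to 0.941). All values here come from the scanner files. In dense cultures each member's day 3 level there lay nearer to days 1 and 2 of the labelled group than of the other line. In sparse cultures this held for E2f2, Mybl2 and Foxm1 but not for every member. On the sparse rescue array of day 3, E2f3 (-0.57) lay within the sparse KO range (-0.73 to -0.42). E2f8 (0.00) lay nearer there to sparse KO cells (0.34 to 0.48) than to sparse rescue days 1 and 2 (-1.34 and -0.68). Results on days 1 and 2 alone are given where they differ.

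Each change is given as log2 fold ± SE, fitted with limma over 12435 genes, and a gene is said to rise, fall or differ when its Benjamini-Hochberg adjusted p was under 0.05. The replicates were cultures of different days, and RNA of all cultures was prepared on 1 day. All changes are relative to the 75th percentile. Under scaling to 6 spike-in probes instead, the all-gene median shifted by -1.55 and 0.80 in KO minus rescue (sparse and dense cells), by 0.72 and 3.07 in dense minus sparse (rescue and KO cells), and by 2.35 in the difference between those responses. Scaling to the array median shifted it by -0.30 in sparse KO minus rescue and by 0.25 in the KO density response and in the difference between responses. In bulk RNA, fewer cells that express a gene and less RNA per cell cannot be told apart.

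**Figure D1:**
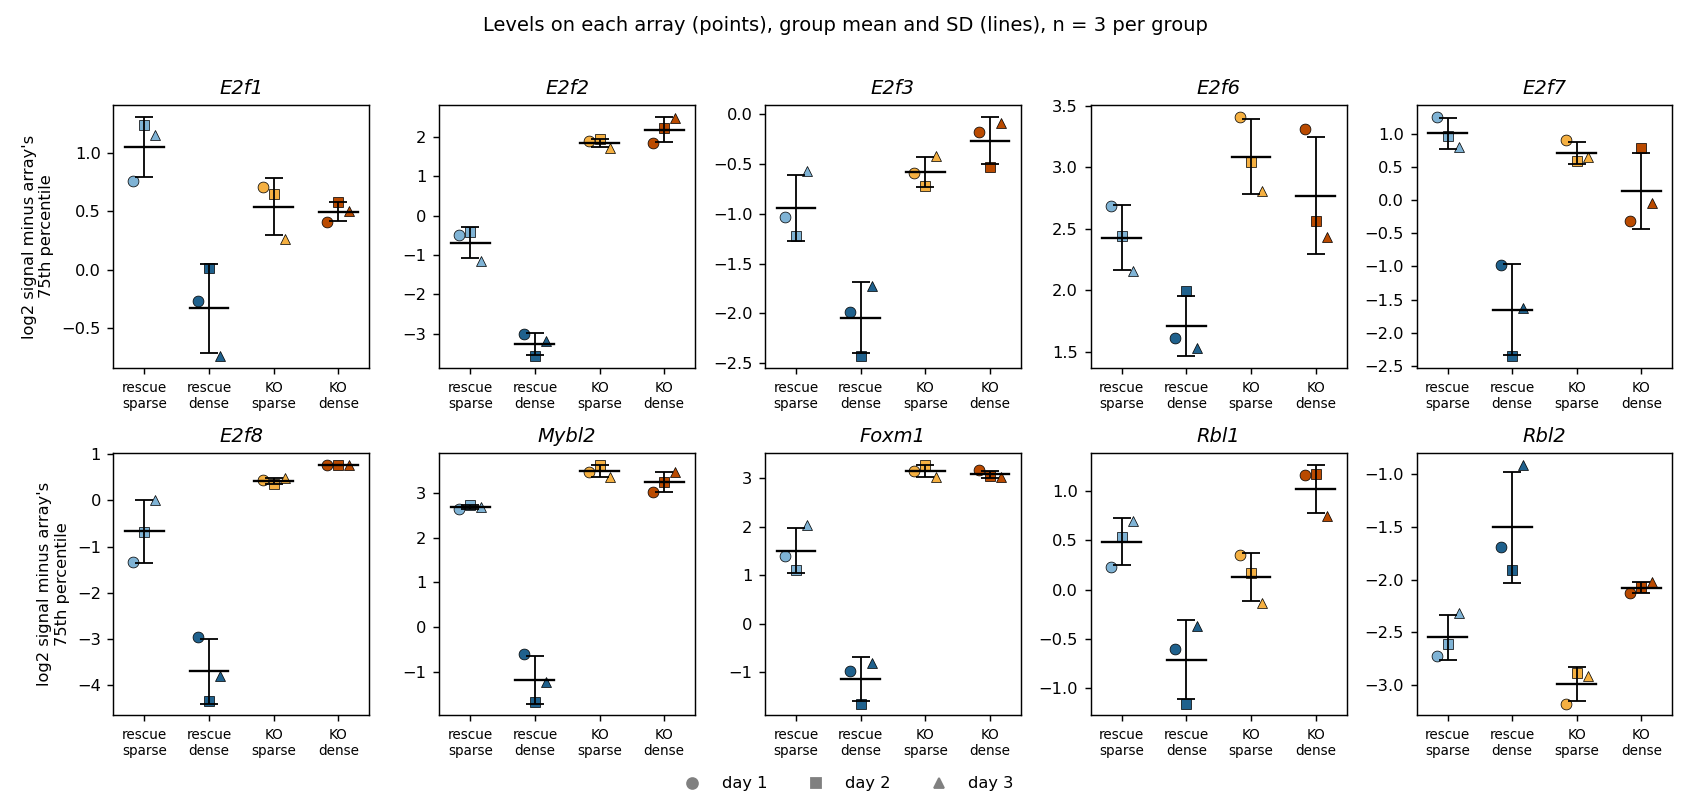
Level of each member on every array (log2 signal minus the array's 75th percentile, vertical axis of its own for each gene) in the 4 groups of 3 cultures, with points shaped by day and lines for mean and SD. For every member except Rbl2 the 3 dense rescue cultures lie below all 9 others, while for Rbl2 they lie at the top.

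In rescue cells, 9 of the 10 genes fell from sparse to dense culture and the tenth, Rbl2, rose. The 6 E2f genes, Mybl2, Foxm1 and Rbl1 were the falls, from -0.72 for E2f6 to -3.86 for Mybl2, which had the 10th lowest value of 12435 genes. In this comparison 40.0% of all genes differed (21% lower, 19% higher), and the median over all genes was -0.08. The dense and sparse rescue cultures did not overlap for any member, as for 26.3% of all genes among those lower and 24.3% among those higher in dense cells. In KO cells none of those 9 genes fell with density. Only Rbl1 and Rbl2 differed there, both higher in dense cells, while 10.9% of all genes did (5.44% higher, 5.47% lower). The KO densities did not overlap for 3 members, Rbl1, Rbl2 and E2f8, all higher in dense cells (19.1% of all genes, and 19.1% lower). Under spike-in scaling all 10 were higher in dense KO cells, where 12375 of 12435 genes changed. The responses of the lines differed for 8 members, each less negative or more positive in KO cells, against 20.7% of all genes (11.3% in that direction, 9.47% in the other). E2f6 and Rbl2 did not pass that test.

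Between the lines the members lay furthest apart in dense culture. There 9 of 10 were higher in KO cells, by 0.83 (E2f1) to 5.44 (E2f2), where 61.6% of all genes differed (31.9% higher, 29.7% lower). The lines did not overlap in dense culture for any member (34.7% of all genes higher and 32.4% lower in KO cells without overlap). In sparse culture 4 of 10 were higher in KO cells (E2f2, Foxm1, E2f8 and Mybl2) and none lower, where 48.8% of all genes differed (23.2% higher, 25.6% lower). There the lines did not overlap for 5 members higher in KO cells, these 4 and E2f6 (28.9% of all genes), or for 2 lower, E2f1 and Rbl2 (30.0%). That sparse count is near the background share, and under spike-in scaling it turned to 0 higher and 5 lower. The comparisons share groups, so their results are not independent of each other.

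**Figure D2:**
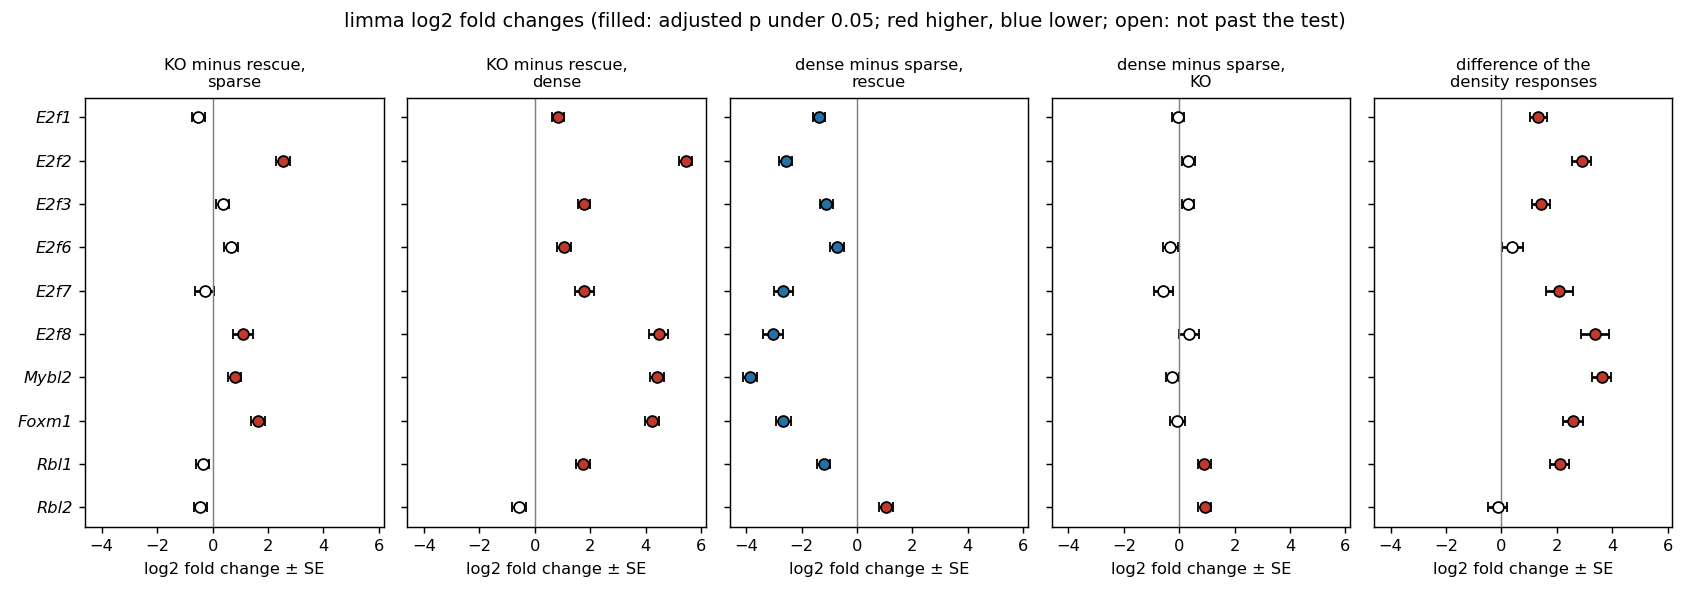
Log2 fold change with SE (horizontal axis) of each member in the 5 comparisons, from limma over 12 arrays, with filled points for adjusted p under 0.05. Red points (higher) fill the dense line comparison and the difference of responses, blue points (lower) the rescue density response, and in KO cells only Rbl1 and Rbl2 are filled.

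E2f1, E2f2 and E2f3 encode the activator E2Fs, which drive genes of DNA replication. E2f2 (chr4:136172274-136196057) had the widest range of the 3. On the arrays of days 1, 2 and 3 it was at -0.50, -0.42 and -1.15 in sparse rescue cells, at -3.02, -3.57 and -3.20 in dense rescue cells, at 1.89, 1.94 and 1.73 in sparse KO cells and at 1.84, 2.24 and 2.47 in dense KO cells. The 6 KO cultures were above all rescue cultures, dense rescue cultures lay lowest, and only the KO densities overlapped. KO cells were 5.82-fold higher in sparse culture (2.54 ± 0.24, limma adjusted p = 3.13e-06) and 43.5-fold higher in dense culture (5.44 ± 0.24, adjusted p = 2.60e-09). With density E2f2 fell by 2.57 ± 0.24 in rescue cells (adjusted p = 1.52e-05). In KO cells the change was 0.33 with a 95% interval of -0.19 to 0.86 (adjusted p = 0.406), and the responses differed by 2.90 ± 0.34 (adjusted p = 0.000270). In sparse cells the difference missed the test under spike-in scaling (1.00, adjusted p = 0.0606).

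E2f1 (chr2:154559400-154569892) moved less. It was at 0.76, 1.24 and 1.15 in sparse rescue cells, -0.27, 0.01 and -0.74 in dense rescue cells, 0.71, 0.64 and 0.26 in sparse KO cells and 0.41, 0.57 and 0.50 in dense KO cells. Here the sparse rescue cultures were the highest and the dense rescue cultures the lowest, with the KO groups overlapping each other between them. E2f1 fell by 1.38 ± 0.22 with density in rescue cells (limma adjusted p = 0.000477). In KO cells the change was -0.04 (95% interval -0.53 to 0.44), a value that turned to 0.21 with median scaling and to 3.03 with spike-in scaling. The responses differed by 1.34 ± 0.31 (adjusted p = 0.0111). In dense culture E2f1 was higher in KO cells by 0.83 ± 0.22 (adjusted p = 0.00619). In sparse culture it was at -0.51 ± 0.22 relative to rescue and did not pass (adjusted p = 0.0757), although it did without sparse rescue replicate 1 (-0.65, adjusted p = 0.0442) or dense rescue replicate 3, and with median scaling (-0.81, adjusted p = 0.0191). With spike-in scaling its fall in rescue cells missed the test (-0.66, adjusted p = 0.292). On days 1 and 2 alone, the dense difference (0.62, adjusted p = 0.0507) and the difference between responses (0.94, adjusted p = 0.106) missed the threshold. A second E2f1 probe, printed in 10 spots, gave -1.35 for the rescue density response, -0.09 for that of KO cells, 1.00 for dense KO minus rescue and 1.26 for the difference of responses (adjusted p = 0.0179 over probes), close to the values of the probe used. In sparse KO minus rescue it gave a smaller value, -0.26 (limma adjusted p = 0.367 over probes).

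For E2f3 (chr13:29906575-29986064) the 2 probes differed. The brighter was at -1.03, -1.22 and -0.57 in sparse rescue cells, -1.98, -2.43 and -1.73 in dense rescue cells, -0.60, -0.73 and -0.42 in sparse KO cells and -0.18, -0.53 and -0.09 in dense KO cells. Dense rescue cultures were again lowest, and the other 3 groups overlapped with their neighbours in order. It fell by 1.10 ± 0.23 with density in rescue cells (limma adjusted p = 0.00273) and was higher in dense KO than dense rescue cells by 1.78 ± 0.23 (adjusted p = 3.28e-05). The responses differed by 1.42 ± 0.33 (adjusted p = 0.0106). In sparse cells KO minus rescue was 0.36 (95% interval -0.14 to 0.87) and turned to -1.19 with spike-in scaling. Its fall in rescue cells missed the test with spike-in scaling (-0.38, adjusted p = 0.575) and with normexp background correction (-0.67, adjusted p = 0.0569), and the difference of responses with normexp (0.78, adjusted p = 0.211). The second E2f3 probe shared the fall in rescue cells (-0.98 ± 0.20) and the dense line difference (1.38 ± 0.20). In sparse cells it was higher in KO by 1.02 ± 0.20 (adjusted p = 0.00142), in KO cells its density response was -0.62 ± 0.20 (adjusted p = 0.0671), and its difference between responses was 0.36 ± 0.28 (adjusted p = 0.403). So the passing sparse difference and the passing difference of responses each rested on 1 of the 2 E2f3 probes. No position of a probe within the gene was at hand.

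E2f6 (chr12:16810909-16826752) encodes a repressor E2F without a pocket protein binding domain, which acts with the Polycomb complex PRC1.6 and silences germline genes. E2f6 was at 2.68, 2.44 and 2.16 in sparse rescue cells, 1.61, 1.99 and 1.53 in dense rescue cells, 3.41, 3.04 and 2.81 in sparse KO cells and 3.31, 2.56 and 2.43 in dense KO cells. The KO densities overlapped, dense KO overlapped with sparse rescue, and dense rescue lay below all. The fall of E2f6 in rescue cells, by 0.72 ± 0.26, passed narrowly (limma adjusted p = 0.0466). The call was lost on leaving out any 1 of 7 arrays (sparse rescue 1 and 2, dense rescue 1 and 3, sparse KO 2 and 3, dense KO 2), with adjusted p up to 0.144 and values of -0.72 to -0.59. It was lost too with quantile scaling, no filter on dim probes, normexp and days 1 and 2 alone (adjusted p = 0.0568, 0.0715, 0.109 and 0.102), and with spike-in scaling the value was 0.0061. E2f6 was higher in dense KO than in dense rescue cells by 1.06 ± 0.26 (adjusted p = 0.00396). In sparse cells the difference was 0.66 ± 0.26 (adjusted p = 0.0555). It passed with the experimental day as a block (0.66, adjusted p = 0.0216) and with quantile scaling (0.69, adjusted p = 0.0300). It also passed with only probes well above background on all 12 arrays (0.66, adjusted p = 0.0428) and without sparse rescue 1, sparse KO 3 or dense KO 1 (0.66 to 0.80). With spike-in scaling it turned to -0.89. The difference of the responses was 0.40 (95% interval -0.41 to 1.21, adjusted p = 0.471), so the size of any difference is not settled by these arrays.

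E2f7 and E2f8 encode the atypical E2Fs, which bind DNA without a DP partner and repress E2F targets late in S phase, being E2F targets themselves. E2f8 (chr7:48866429-48882073) was at -1.34, -0.68 and 0.00 in sparse rescue cells, -2.95, -4.35 and -3.80 in dense rescue cells, 0.45, 0.34 and 0.48 in sparse KO cells and 0.77, 0.77 and 0.77 in dense KO cells. No neighbours in this order of groups overlapped, the rescue cultures varied by over a log2 unit within each density, and the KO cultures hardly varied. With density E2f8 fell by 3.03 ± 0.36 in rescue cells (limma adjusted p = 6.19e-05). The KO change was 0.35 (95% interval -0.43 to 1.13, adjusted p = 0.573), although the 2 KO groups did not overlap. The responses differed by 3.37 ± 0.50 (adjusted p = 0.000985). KO cells were higher by 4.47 ± 0.36 in dense culture, which is 22.2-fold (adjusted p = 4.94e-07), and by 1.10 ± 0.36 in sparse culture (adjusted p = 0.0235). The sparse call was lost without sparse rescue 1 (0.76, adjusted p = 0.1003), sparse rescue 2, sparse KO 1 or sparse KO 3, with median scaling (0.79, 0.121) and with the slide as a block (1.38, 0.0893), and its sign turned with spike-in scaling (-0.45).

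E2f7 (chr10:110745439-110787384) was at 1.25, 0.97 and 0.80 in sparse rescue cells, -0.98, -2.35 and -1.63 in dense rescue cells, 0.90, 0.60 and 0.64 in sparse KO cells and -0.32, 0.78 and -0.05 in dense KO cells. Only dense rescue cells stood apart, since each of the other groups overlapped with its neighbour. E2f7 fell by 2.66 ± 0.34 with density in rescue cells (limma adjusted p = 0.000117), and was higher in dense KO than dense rescue cells by 1.79 ± 0.34 (adjusted p = 0.000704). In sparse cells KO minus rescue was -0.29 (95% interval -1.04 to 0.46), and 0.34 with the slide as a block. The KO density response was -0.58 (95% interval -1.33 to 0.17), the most negative of the members, and its 3 days gave -1.22, 0.18 and -0.69, of both signs. Spike-in scaling turned it to 2.49. The responses of the lines differed by 2.08 ± 0.49 (adjusted p = 0.0112), a call lost on days 1 and 2 alone (2.25, adjusted p = 0.0969) and with normexp background correction (1.31, adjusted p = 0.145).

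Mybl2 encodes B-MYB, itself an E2F target, which works with MuvB at genes of the G2 phase and mitosis. Mybl2 (chr2:163054327-163084688) was at 2.64, 2.74 and 2.68 in sparse rescue cells, -0.61, -1.69 and -1.23 in dense rescue cells, 3.47, 3.63 and 3.37 in sparse KO cells and 3.02, 3.23 and 3.47 in dense KO cells. The KO groups overlapped each other, all KO cultures lay above the sparse rescue cultures, and dense rescue cultures lay far below. The fall in rescue cells was by 3.86 ± 0.24 (14.6-fold, limma adjusted p = 1.38e-06), and the KO change was -0.25 (95% interval -0.78 to 0.28), which was 0.0047 with median scaling and 2.82 with spike-in scaling. The responses differed by 3.62 ± 0.34 (adjusted p = 9.61e-05). Mybl2 was higher in KO cells by 4.42 ± 0.24 in dense culture (21.4-fold, adjusted p = 1.82e-08) and by 0.80 ± 0.24 in sparse culture (adjusted p = 0.0164). The sparse call was lost without sparse KO 2 (0.73, adjusted p = 0.0564), on days 1 and 2 alone (0.86, 0.0830), with median scaling (0.50, 0.180) and with normexp (0.66, 0.0926), and the sign turned with spike-in scaling (-0.75).

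Foxm1 (chr6:128362994-128375886) encodes a forkhead factor that joins MuvB at mitotic genes. It was at 1.40, 1.11 and 2.03 in sparse rescue cells, -0.98, -1.65 and -0.80 in dense rescue cells, 3.16, 3.28 and 3.02 in sparse KO cells and 3.17, 3.05 and 3.04 in dense KO cells. As for Mybl2, the KO densities overlapped and lay above sparse rescue cells, with dense rescue cells lowest. Foxm1 fell by 2.65 ± 0.26 with density in rescue cells (limma adjusted p = 2.03e-05). In KO cells the change was -0.07 (95% interval -0.64 to 0.50), and 0.18, 0.071 and 3.004 with median scaling, normexp and spike-in scaling. The responses differed by 2.59 ± 0.37 (adjusted p = 0.000773). The line difference was 4.23 ± 0.26 in dense cells (18.7-fold, adjusted p = 5.32e-08) and 1.64 ± 0.26 in sparse cells (3.12-fold, adjusted p = 0.000252), the latter 0.09 with spike-in scaling (adjusted p = 0.858).

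The 2 pocket protein genes moved in opposite directions with density in rescue cells. Rbl1 encodes p107, which is made in cycling cells from an E2F-controlled gene, and Rbl2 encodes p130, the pocket protein of resting cells. Rbl1 (chr2:157145893-157204534) was at 0.23, 0.53 and 0.70 in sparse rescue cells, -0.61, -1.16 and -0.37 in dense rescue cells, 0.35, 0.17 and -0.13 in sparse KO cells and 1.16, 1.17 and 0.75 in dense KO cells. Dense KO cells were highest, the sparse groups of the lines overlapped, and dense rescue cells were lowest. Rbl1 fell by 1.20 ± 0.24 with density in rescue cells (limma adjusted p = 0.00189) and rose by 0.90 ± 0.24 in KO cells (adjusted p = 0.0333), so its responses differed by 2.10 ± 0.33 (adjusted p = 0.00141). The dense line difference was 1.74 ± 0.24 (adjusted p = 4.83e-05), and the sparse one -0.36 (95% interval -0.88 to 0.16). The fall in rescue cells missed the test with normexp (-0.75, adjusted p = 0.0750) and with spike-in scaling (-0.48, adjusted p = 0.475).

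Rbl2 (chr8:91070057-91123844) was at -2.73, -2.61 and -2.31 in sparse rescue cells, -1.69, -1.91 and -0.91 in dense rescue cells, -3.18, -2.89 and -2.91 in sparse KO cells and -2.13, -2.07 and -2.03 in dense KO cells. The order ran from dense rescue through dense KO and sparse rescue to sparse KO cells, and no neighbours overlapped. Rbl2 rose with density by 1.05 ± 0.24 in rescue cells (limma adjusted p = 0.00473) and by 0.92 ± 0.24 in KO cells (adjusted p = 0.0321). The responses differed by -0.13 with a 95% interval of -0.87 to 0.61, a value whose sign turned without dense rescue 3 (0.17) and with quantile, median and spike-in scaling. Rbl2 was at -0.57 ± 0.24 in dense KO relative to dense rescue cells (adjusted p = 0.0559). This difference passed with the experimental day as a block (-0.57, adjusted p = 0.0319) and without dense rescue 2 (-0.77, 0.0173). It also passed with only probes well above background on all 12 arrays (-0.57, 0.0453) and with the mean of a gene's probes (-0.66, 0.0374). With spike-in scaling it turned to 0.23. In sparse cells it was at -0.44 ± 0.24 (adjusted p = 0.147), and 0.22 with normexp, while it passed without dense rescue 3 (adjusted p = 0.0481), with quantile scaling (-0.66, adjusted p = 0.0384) and with median scaling (-0.75, adjusted p = 0.0456). A second Rbl2 probe gave 1.18 for rescue density (adjusted p = 0.0125), 0.89 for KO density (adjusted p = 0.0900) and -0.75 for dense KO minus rescue (adjusted p = 0.0590). The rises of Rbl1 and Rbl2 in KO cells were close to the threshold. Leaving out any of sparse KO 1, 2 or 3 or dense KO 1 or 2 lost both calls, leaving out dense KO 3 lost that of Rbl2, and over these 6 arrays the values were 0.77 to 1.04 for Rbl1 and 0.83 to 0.97 for Rbl2. Both were lost too with no filter on dim probes (adjusted p = 0.0596 and 0.0579) and with normexp (0.84 and 0.29), and that of Rbl1 on days 1 and 2 alone (0.91, adjusted p = 0.0766). With normexp the rise of Rbl2 in rescue cells also missed the test (0.50, adjusted p = 0.369).

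The difference between Rbl1 and Rbl2 on the same array does not depend on the scaling of that array. Its size has no meaning as a ratio of transcripts, since the probes differ, but its change between groups can be read. It was 2.96, 3.14 and 3.01 in sparse rescue cells, 1.09, 0.75 and 0.54 in dense rescue cells, 3.53, 3.06 and 2.78 in sparse KO cells and 3.29, 3.25 and 2.77 in dense KO cells. The 3 dense rescue cultures lay below the other 9. The mean (± SD, n = 3) was 3.04 ± 0.09, 0.79 ± 0.28, 3.12 ± 0.38 and 3.10 ± 0.29 in the same order. Dense minus sparse was -2.25 in rescue cells, and dense KO minus dense rescue was 2.31. Each gave p = 0.1 in the two-sided exact permutation test, the smallest that 3 against 3 arrays allow. The KO density difference was -0.02 (exact p = 0.9) and the sparse line difference 0.08 (exact p = 0.8). With normexp the 4 values were -1.25, 1.05, 0.56 and -0.76 in the same order, so both small ones changed sign.

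Day by day, the rescue responses to density had the same sign on all 3 days for each of the 10 genes. Mybl2 gave -3.26, -4.42 and -3.91 on days 1, 2 and 3, Foxm1 -2.38, -2.75 and -2.83, E2f8 -1.61, -3.67 and -3.80, and E2f7 -2.23, -3.32 and -2.43. E2f8 thus fell least on day 1. In KO cells the sign held on all 3 days for E2f3, E2f6, E2f8, Rbl1 and Rbl2 and varied for the other 5. Rbl1 gave 0.81, 1.01 and 0.88 there, Rbl2 1.05, 0.82 and 0.89, and E2f8 0.32, 0.43 and 0.30.

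**Figure D3:**
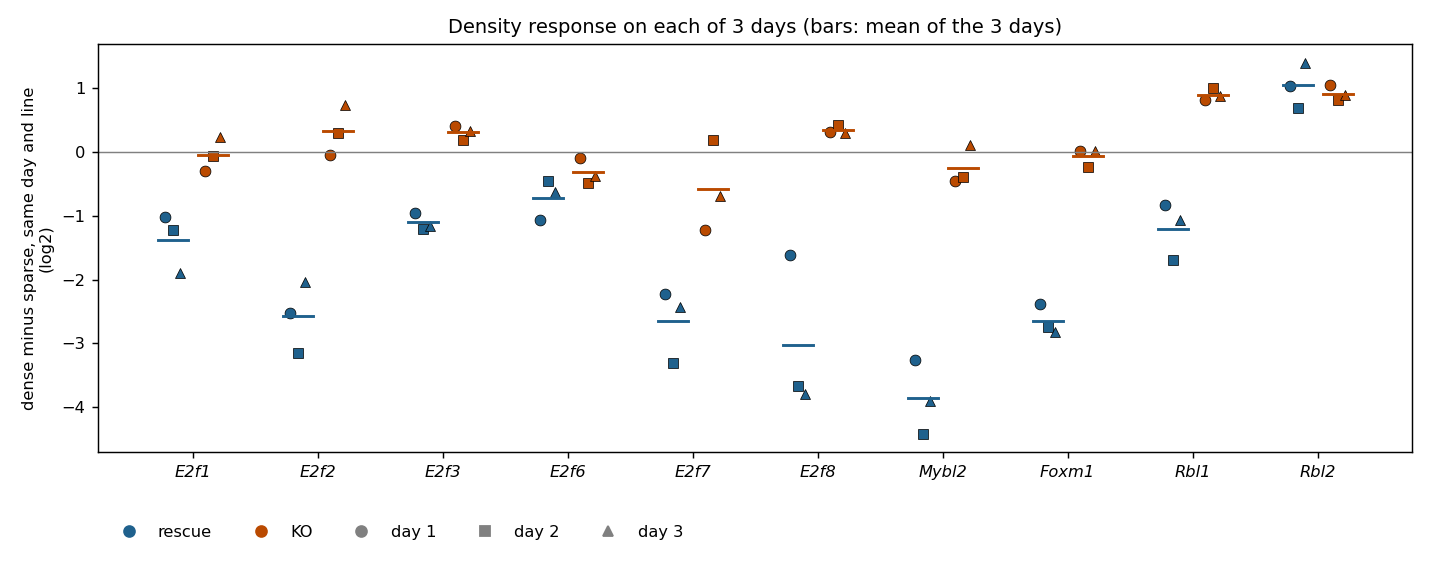
Dense minus sparse level (log2, vertical axis) of each member in rescue (blue) and KO cells (orange) on each of 3 days, with a bar for the mean of the days. Blue points lie below 0 for every gene but Rbl2, and for 8 genes orange points lie near 0 or on both sides of it.

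Both densities of a line and day shared a slide, so the density responses are within slides. The lines shared a slide only on day 2, and on days 1 and 3 the slide and the line cannot be told apart. On the shared slide dense KO minus dense rescue was 5.81 for E2f2, 5.12 for E2f8, 4.92 for Mybl2, 4.69 for Foxm1, 3.13 for E2f7, 2.33 for Rbl1, 1.90 for E2f3, 0.57 for E2f6, 0.56 for E2f1 and -0.16 for Rbl2, each with 1 culture per line. These have the signs of the 3-day fits. In sparse cells it was 2.36 for E2f2, 2.18 for Foxm1, 1.02 for E2f8 and 0.90 for Mybl2. With the slide as a block, the dense difference of E2f1 missed the test (0.66, limma adjusted p = 0.106).

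Partners of the members were taken from a list of other E2F, DP, pocket and MuvB genes, of which 11 of 12 were measured. Of all genes tested, 40.0% differed in the rescue density response, 10.9% in that of KO cells and 20.7% in the difference of responses. Between the lines 61.6% differed in dense and 48.8% in sparse cells, and the counts of every list stand beside these shares. In the rescue density response 6 fell and 2 rose (median -0.74). The rises were Rb1, the gene of the RB protein (1.02 ± 0.20, limma adjusted p = 0.00154), and Lin37, a MuvB subunit (0.75 ± 0.26, adjusted p = 0.0346), which thus moved as Rbl2 did. The falls were Mybl1, the gene of A-MYB (-2.07 ± 0.52), E2f4, the main E2F of DREAM (-1.52 ± 0.50, adjusted p = 0.0296), Lin54, the DNA-binding MuvB subunit (-1.34 ± 0.17), the DP genes Tfdp1 (-1.18 ± 0.30) and Tfdp2 (-0.76 ± 0.26), and Rbbp4 (-0.55 ± 0.18). Mybl1 had the lowest mean level of the list after Myb (-4.85 over the arrays). In dense rescue cells 9 of the 11 genes were well above background on all 3 arrays, so the sizes given for Mybl1 are uncertain. Lin52 (-0.68), E2f5 (-0.04) and Myb (-0.74, well above background on no rescue array) did not pass. In KO cells 0 of 11 passed with limma, 3 at an unadjusted p under 0.05.

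In dense culture 8 of these partners were higher in KO cells and 1 lower (median 1.20). Tfdp1 and Tfdp2 were higher by 3.39 ± 0.30 and 2.91 ± 0.26, E2f4 by 1.89 ± 0.50, Mybl1 by 1.63 ± 0.52, Lin54 by 1.20 ± 0.17, Lin52 by 1.18 ± 0.27 and Rbbp4 by 0.54 ± 0.18. Myb was well above background on all 3 dense KO arrays and on no rescue array, at least 2.04-fold apart in dense cells. It passed the filter on dim probes only through KO cells, where it is high. No p-value is therefore given, and its place among the 8 carries no weight. Rb1 was the lower one, by -1.82 ± 0.20 (limma adjusted p = 6.79e-06). E2f5 (-0.12) and Lin37 (-0.41) did not pass. In sparse cells Tfdp1 (1.76), Tfdp2 (1.62) and Rbbp4 (0.50) were higher in KO cells and Rb1 lower (-1.12), a smaller share than the 48.8% over all genes. With spike-in scaling 0 of the list were higher and 7 lower in sparse KO cells, and all 11 were higher in dense than sparse KO cells. The density responses of E2f4 (2.35 ± 0.70), Tfdp1 (1.64 ± 0.42), Tfdp2 (1.29 ± 0.37) and Lin54 (1.09 ± 0.25) differed between the lines, and with normexp 0 of the list did (4 at an unadjusted p under 0.05). With normexp 1 of the list remained past the test in the rescue density response.

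Upstream of the pocket proteins, 14 of 16 cyclin, kinase and inhibitor genes were measured. In the rescue density response 8 fell and 3 rose (median -1.08). The largest falls were the cyclin E genes, whose products activate CDK2 before S phase, Ccne2 (-3.30 ± 0.41) and Ccne1 (-2.85 ± 0.31). The largest rises were the INK4 inhibitor genes Cdkn2b (1.89 ± 0.21) and Cdkn2a (1.32 ± 0.21). In dense culture 8 were higher and 2 lower in KO cells, led by Ccne2 (4.53 ± 0.41) and the cyclin D gene Ccnd2 (3.36 ± 0.17), with Cdkn2b (-3.60 ± 0.21) and Cdkn2a (-1.35 ± 0.21) the lower ones. In KO cells Cdk6 (-1.81 ± 0.23) and Cdkn1b, the p27 gene (-0.70 ± 0.19), fell with density and Cdkn1a, the p21 gene, rose (0.86 ± 0.23). In sparse cells 6 were higher and 2 lower in KO cells, among them Cdkn1b (2.03 ± 0.19) and Cdkn2b (-2.36 ± 0.21), and 8 responses differed between the lines, 5 more positive in KO cells. With spike-in scaling 0 were higher and 8 lower in sparse KO cells, and all 14 were higher in dense than sparse KO cells. With normexp 4 passed in sparse cells, 0 in the KO density response (limma, 3 at an unadjusted p under 0.05) and 3 in the difference of responses. The levels of these genes moved beside those of the members, and a part in the members' changes was not tested.

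Target genes of activator E2Fs, which act at the entry into S phase, made up another list. Of 30 G1/S target genes 29 were measured, and 26 fell with density in rescue cells and none rose (median -1.91), led by the replication licensing genes Cdc6 (-3.42 ± 0.24) and Orc1 (-3.35 ± 0.24). In KO cells 0 of 29 passed with limma (2 at an unadjusted p under 0.05, median 0.10). In dense culture 26 were higher in KO cells and none lower (median 2.34), with Orc1 at 4.14 ± 0.24 and Cdc6 at 3.83 ± 0.24. In sparse culture they went both ways, 11 higher and 4 lower (median 0.33), from Ezh2 (2.21 ± 0.25) and Mcm4 (1.55 ± 0.18) to Tyms (-0.90 ± 0.29) and Gins2 (-1.11 ± 0.21), while with spike-in scaling 0 were higher and 17 lower. The density responses of 24 differed between the lines, each more positive in KO cells, with Cdc6 (3.89 ± 0.33) and Rrm2 (3.19 ± 0.39) the largest. With spike-in scaling 14 still fell in rescue cells, and all 29 were higher in dense than sparse KO cells. Of 27 promoter windows of this list 12 held E2F letters (44.4%, all windows 2.26%) and 4 held CHR letters (14.8%, all windows 19.2%).

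Of 30 target genes of MuvB, B-MYB and FOXM1, which act in G2 and mitosis, 29 were measured, and of these 28 fell with density in rescue cells (median -2.03), with Cdk1, the mitotic kinase (-2.62 ± 0.26), and Top2a, a topoisomerase (-2.54 ± 0.30), the largest. In KO cells 1 fell, Hmmr (-1.54 ± 0.43, limma adjusted p = 0.0411), with a median of -0.04. All 29 were higher in dense KO than dense rescue cells (median 2.02), led by Ect2 (3.06 ± 0.22) and Nek2 (2.91 ± 0.23). In sparse cells 6 were higher and 1 lower (median 0.13), among them Cenpf (1.32 ± 0.29), Ect2 (1.01 ± 0.22) and Cdk1 (-0.91 ± 0.26). Of all genes a larger share, 48.8%, differed there. With normexp 1 passed there, and with spike-in scaling 0 were higher and 22 lower. The responses of 23 differed between the lines, up to 2.96 ± 0.37 for Cdk1 and 2.73 ± 0.35 for Ube2c. With spike-in scaling 18 still fell in rescue cells and all 29 were higher in dense KO than sparse KO cells. Of 28 windows of this list 24 held CHR letters (85.7%, all windows 19.2%), 26 held CCAAT (92.9%, all windows 37.4%) and 1 held E2F letters (3.57%). Among the 9 members with windows only Rbl2 rose with density in rescue cells, so these genes cannot show whether letters go with direction. E2f2, E2f3, E2f7, E2f8 and Rbl1, with E2F or CHR letters, fell, as did Mybl2 with the shorter string. E2f1, whose window inside the gene held none of the letters searched, and E2f6, whose window held only MYB letters, also fell. Rbl2, which rose, held CHR and MYB letters.

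**Figure D4:**
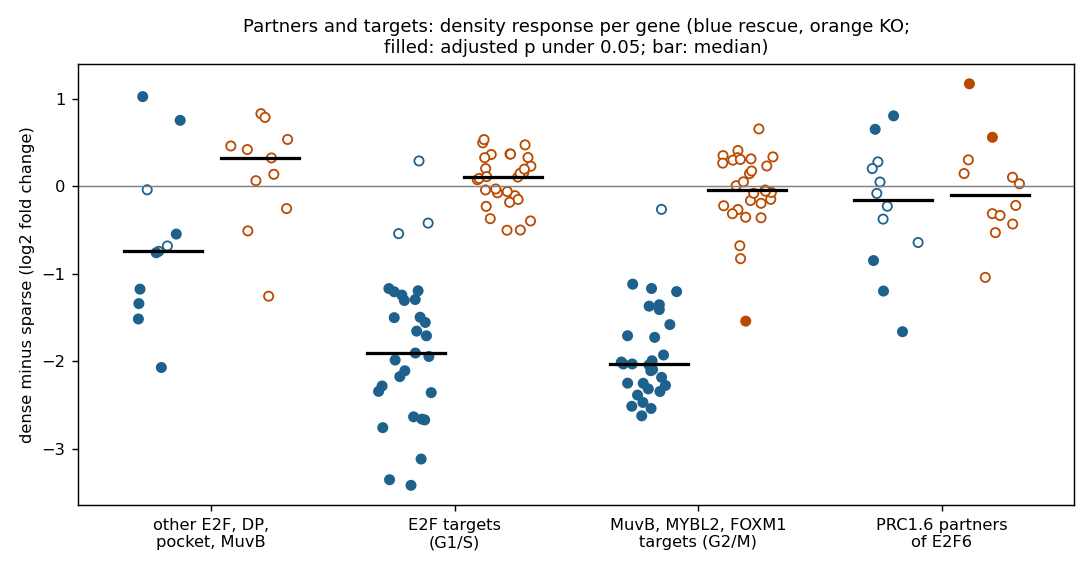
Dense minus sparse change (log2 fold change, vertical axis) of each measured gene in 4 lists, in rescue (blue) and KO cells (orange), with bars for medians and filled points for adjusted p under 0.05. The 2 target lists lie near -1.91 and -2.03 in rescue cells and near 0 in KO cells, and the PRC1.6 partners spread around 0 in both.

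The partners of E2F6 in PRC1.6 did not move as a block. Of 12 measured genes 3 fell and 2 rose with density in rescue cells (median -0.16). The counts of this list in rescue density and between the lines lie near the shares of all genes (40.0%, 61.6% dense, 48.8% sparse). L3mbtl2 (-1.66 ± 0.31) and Wdr5 (-1.20 ± 0.18) fell most, and Epc1 (0.80 ± 0.22) and Mga (0.65 ± 0.20), whose product joins E2F6 and MAX in the complex, rose. In KO cells Ring1 (1.17 ± 0.28) and Rnf2 (0.56 ± 0.16) rose, and none fell. In dense culture 6 were higher in KO cells, Pcgf6 (1.83 ± 0.30) and Wdr5 (1.57 ± 0.18) the most, and Epc1 was lower (-0.91 ± 0.22). In sparse culture 4 were higher, Pcgf6 (1.16 ± 0.30) and Mga (0.98 ± 0.20) the most, and Hdac2 was lower (-0.93 ± 0.26). The responses differed for Wdr5 (1.34 ± 0.25), Mga (-1.08 ± 0.29) and Epc1 (-1.02 ± 0.32). With spike-in scaling 0 of the list were higher and 7 lower in sparse KO cells, and all 12 were higher in dense than sparse KO cells. With normexp 2 passed in sparse cells and 0 in the KO density response (limma, 1 at an unadjusted p under 0.05). Of 11 germline genes that E2F6 is known to silence, only 2 passed the filter on dim probes. Tex101 passed it only through sparse KO cells, the 1 group with all 3 arrays well above background, so no difference is given for it. Tuba3a was well above background on all 3 arrays of every group, at a high mean level (5.67). It fell with density in rescue cells (-1.11 ± 0.20) and was lower in sparse KO than sparse rescue cells (-0.74 ± 0.20). The latter call was lost with normexp (-0.65, limma adjusted p = 0.0766). A part of E2F6 in the values of Tuba3a was not tested.

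The genes with the profile most like each member's were found by the root mean square difference (RMS, log2 units) of levels centred on their mean, over 12 arrays. The nearest to Mybl2 were Orc1 (0.26), Asf1b (0.39) and Kbtbd8 (0.45), where the median over all genes was 1.94. Those of Foxm1 were Rad51ap1 (0.22), Cep55 (0.23) and Slc30a1 (0.31, median 1.80). The nearest to E2f8 were Asf1b (0.27), Rad51ap1 (0.32) and Cep55 (0.33, median 1.85), so E2f8 shared Asf1b with Mybl2 and Rad51ap1 and Cep55 with Foxm1. E2f7 was nearest to Aurkb (0.31), Tk1 (0.38) and Hrob (0.39, median 1.23), and E2f2 to Tnfsf18 (0.42), Cdca7 (0.43) and Atp6v0a4 (0.45, median 2.22). The members with smaller changes had small distances to other genes. E2f1 was nearest to Exosc8 (0.18), Marchf3 (0.20) and Lysmd2 (0.22, median 0.78), E2f3 to Usp10 and 2310057M21Rik (each 0.18, median 0.89), and E2f6 to Ogg1 (0.17), Wwc2 (0.18) and Coq7 (0.19, median 0.78). Rbl1 was nearest to Rbmx (0.20), Hjurp (0.23) and Dscc1 (0.23, median 0.88). Rbl2 was nearest to Lin37 (0.19), the MuvB subunit that also rose with density in rescue cells, and then to Cltc (0.21) and Nme7 (0.21, median 0.90). Among the members themselves, E2f8 and Foxm1 were closest (0.37) and E2f2 and Rbl2 furthest apart (2.62).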

How the data were processed

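Total RNA (100 ng per culture) was labelled with Cy3 and hybridised to one-colour arrays. Per the file headers, the authors extracted linear spot intensity with Feature Extraction 10.5.1.1, which subtracted background within an array, and arrays were not normalised to each other. The values deposited in the authors' table are log2 intensity, and its normalisation is not given in the sources used here. It served as an alternative, with and without its day 3 columns, which follow the scanner file of the other line.

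The members and gene lists were chosen with earlier results of these data known. From 43379 spots, those marked as non-uniform or outliers by the scanner software (between 79 and 265 on an array) became missing values, and no spot was saturated. Log2 processed signals were averaged per probe, and the array's 75th percentile was subtracted. Of 41174 probes 24375 had 1 gene symbol through RefSeq (GRCm38.p6), and 16799 had none assigned and were left out. A probe was kept if any group had it well above background on its 3 arrays, and the one with the highest mean stood for its gene (12435 genes, 4466 with several kept probes). The test was limma 3.58.1 under R 4.3.3 (package data.table, version 1.17.8), fitting 1 mean per group with 8 residual and 3.58 prior degrees of freedom. P-values were adjusted by Benjamini-Hochberg over the tested genes, separately in 5 comparisons, with a threshold of 0.05. The fit was tested on simulated data. A lower bound divides the brighter group's mean by the mean, over the dimmer arrays, of the larger of the probe's signal and the lowest signal well above background.

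The labels number replicates by experimental day, so numbers pair the cultures. Deviations of same-day arrays from their group means correlated above 0.1 in 11 of 18 pairs (-0.04 to 0.30). The day and the slide (5 slides) entered as blocks only as alternatives. With the slide as a block, the line difference comes from 1 slide alone. Other alternatives were scaling by quantiles, median or spike-ins, normexp (offset 50) on the median spot signal because the files hold no mean signal, the filter on dim probes, the mean of a gene's probes, days 1 and 2 alone, and leaving out each array.

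The text names all members, the partner list, Ptk2, up to 2 called rises and 2 called falls of each other list per comparison, and the 3 nearest profiles of each member, of which 1 is not reported here. The 11 lists comprise 6 of partners, upstream genes and targets and 5 of cell type markers.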

Additional observations from a re-analysis of the deposited data

Results flagged for a closer look

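The test of the difference between the density responses of the lines singled out 8 of the 10 genes, each with a dense minus sparse change that was more positive in KO than in rescue cells (limma, log2 ± SE over 12 arrays). The differences were 3.62 ± 0.34 for Mybl2 (adjusted p = 9.61e-05), 3.37 ± 0.50 for E2f8 (adjusted p = 0.000985), 2.90 ± 0.34 for E2f2 (adjusted p = 0.000270) and 2.59 ± 0.37 for Foxm1 (adjusted p = 0.000773). They were 2.10 ± 0.33 for Rbl1 (adjusted p = 0.00141), 2.08 ± 0.49 for E2f7 (adjusted p = 0.0112), 1.42 ± 0.33 for E2f3 (adjusted p = 0.0106) and 1.34 ± 0.31 for E2f1 (adjusted p = 0.0111). All 8 kept their call on leaving out any 1 array. The call of E2f3 rested on its brighter probe, and those of E2f1 and E2f7 were lost on days 1 and 2 alone. Those of E2f3 and E2f7 were lost with normexp background correction. Rbl1 was the gene among them that fell in one line and rose in the other.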

How the results depend on the processing

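The dense line differences and the density responses of E2f2, E2f7, E2f8, Mybl2 and Foxm1 in rescue cells kept direction and call under every scaling, background and filter tried on the scanner files. With the experimental day as a replicate block the members called were 5, 10, 10, 2 and 8 in the 5 comparisons (KO minus rescue sparse and dense, dense minus sparse rescue and KO, difference of responses), with only E2f6 in sparse (0.66) and Rbl2 in dense cells (-0.57) newly past the test, and the block changed no other call.

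Leaving out 1 array gave 3 to 6, 9 to 10, 9 to 10, 0 to 2 and 8 to 8 members called, and 5325 to 6237, 7021 to 7830, 4242 to 5156, 514 to 1598 and 1967 to 2572 genes. Leaving out dense KO 2 gave the lowest count of genes in KO density, 514, and the count also fell by over 1.5 times without sparse KO 1, sparse KO 3 or dense KO 1. The 0 members came without sparse KO 1, 2 or 3 or dense KO 1 or 2 (limma, 2 to 3 at an unadjusted p under 0.05). Rbl1 minus Rbl2 ranged over -0.12 to 0.25, 2.18 to 2.48, -2.39 to -2.12 and -0.19 to 0.18 in the first 4 comparisons, E2f1 in KO density over -0.18 to 0.042, and Rbl2 in the difference of responses over -0.33 to 0.17.

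In the deposited table as labelled, the day 3 columns follow the scanner file of the other line. It called 0 members in all 5 comparisons with limma (0, 1, 2, 1 and 0 at an unadjusted p under 0.05). Of all genes it called 0, 0, 0, 1 and 0 (120, 67, 939, 990 and 41 unadjusted). There Rbl1 minus Rbl2 was -0.22, 0.91 and -1.26 in the first 3 comparisons, Rbl2 0.22 and 0.19 between lines in sparse and dense cells, and E2f2, E2f3 and E2f8 -0.56, -0.14 and -0.79 in KO density. Without its day 3 columns it called 3, 8, 10, 2 and 6 members, with 722 genes in KO density and 1345 in the difference of responses. Rbl2 then was 0.0315 in dense cells and 0.23 in the difference of responses, and E2f2 and Foxm1 -0.11 and 0.065 in KO density. The scanner files of days 1 and 2 gave 1 member and 621 genes in KO density, 1214 genes in the difference of responses, and Rbl2 there at 0.066.

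With normexp 3355, 5028, 2321, 48 and 567 genes passed, with 6 members in rescue density and 0 in KO density (1 at an unadjusted p under 0.05), Rbl1 minus Rbl2 of -0.76, 1.05, -1.25 and 0.56, Rbl2 at 0.22 in sparse cells and Foxm1 at 0.071 in KO density. No filter on dim probes gave 0 members in KO density (2 unadjusted). With spike-in scaling 9452, 12375 and 10756 genes passed in sparse cells, KO density and the difference of responses, with 6 members in rescue and 10 in KO density. There sparse KO minus rescue was -1.19 for E2f3, -0.89 for E2f6, -0.45 for E2f8 and -0.75 for Mybl2, Rbl2 in dense cells 0.23, E2f6 in rescue density 0.0061, and KO density 3.03, 2.75, 2.49, 2.82 and 3.004 for E2f1, E2f6, E2f7, Mybl2 and Foxm1, and Rbl2 in the difference of responses 2.22. With median scaling E2f1, Mybl2 and Foxm1 were 0.21, 0.0047 and 0.18 in KO density, and Rbl2 was 0.12 (quantile scaling 0.15) in the difference of responses. The mean of probes gave E2f3 -0.15 in KO density, and the slide as a block E2f7 0.34 in sparse cells. Of these shifts those of days 1 and 2 go with fewer arrays, and the cause of the others was not tested.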
